A study of Mus musculus with 16 samples.

Results

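The 9 genes described here belong to the Nrf2 response, the programme with which cells answer oxidants and electrophiles: Nfe2l2, which encodes Nrf2 itself, and Gclc, Gclm, Gsr, Txnrd1, Srxn1, Nqo1, Ephx1 and Hmox1. They were taken by symbol from the 19938 mouse genes that the array measured with a probe set carrying a single gene symbol, and each was represented by 1 probe set. Their levels were read in liver from 16 adult mice with Affymetrix MoGene 1.0 ST arrays, which measure whole transcripts, with 1 array per animal. The mice formed 4 groups of 4: wild type on a control diet (WT_control), wild type on a high-fat diet (WT_HFD), and mice heterozygous for a null allele of Gli2 on the control diet (Het_control) or the high-fat diet (Het_HFD), each diet lasting 12 weeks. Gli2 encodes a transcription factor of the hedgehog pathway. The genotype field of the wild-type animals names Gli1 where the series text names Gli2, and they are treated here as wild type. The sources used here do not give the construction of the null allele, the strain, the sex or the composition of the diets. Values are RMA levels on the log2 scale, so a difference of 1 is a doubling. Replicate numbers only name the animals and pair none of them.

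Nrf2 is held by Keap1, an adaptor that delivers it to a Cul3 ubiquitin ligase for destruction. Oxidants and electrophiles modify Keap1, and Nrf2 then builds up, pairs with a small Maf protein and binds antioxidant response elements (ARE) at its target genes. Because this control acts mainly on the protein, the Nfe2l2 transcript is not a measure of Nrf2 activity. In liver the targets make glutathione, keep thioredoxin reduced and take part in the metabolism of foreign compounds, and a fatty diet is studied as a source of oxidants there.

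The letters of the ARE core, TGACNNNGC, were searched on both strands of the 250 bases before annotated start sites, together with TGANTCA, the related AP-1 motif, which can overlap the ARE core. RefSeq (GRCm38.p6) gave 8 start sites for 6 of the 9 genes, and Gclc, Hmox1 and Gsr had no entry. Among 32851 mouse promoters, 10.2% held the ARE core and 6.75% held TGANTCA. Of the 8 start sites, 3 had the ARE core, those of Nfe2l2 (240 bases upstream), Gclm (134 bases) and Txnrd1 (92 bases, at 1 of its start sites), and Srxn1 had 2 copies of TGANTCA, 102 and 45 bases upstream. The 4 stretches follow, with the matches in capitals, to show what the genes named for this response carry near their starts. They lie at chr2:75704855-75704913 (minus strand) for Nfe2l2, chr3:122245383-122245471 (plus) for Gclm, chr10:82859074-82859162 (plus) for Txnrd1 and chr2:152105382-152105523 (plus) for Srxn1. Each is written 5′ to 3′ on the gene's strand, so that the capitals in Gclm and Txnrd1 are the core's reverse complement.
Nfe2l2: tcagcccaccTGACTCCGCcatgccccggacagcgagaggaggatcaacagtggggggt
Gclm: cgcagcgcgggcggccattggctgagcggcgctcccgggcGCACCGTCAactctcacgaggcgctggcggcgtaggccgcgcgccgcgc
Txnrd1: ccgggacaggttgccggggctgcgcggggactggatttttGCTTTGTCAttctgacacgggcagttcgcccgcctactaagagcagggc
Srxn1: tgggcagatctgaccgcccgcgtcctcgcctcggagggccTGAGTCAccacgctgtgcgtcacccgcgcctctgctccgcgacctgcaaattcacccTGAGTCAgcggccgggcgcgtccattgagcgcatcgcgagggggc
The windows of Nqo1 (chr8:107403206-107403455, minus strand) and Ephx1 (chr1:181017570-181017819, minus strand), the only members called below, held neither motif. They are shown for comparison. A match describes letters and not a bound site, and its absence says only that these letters are not in this window.
Nqo1: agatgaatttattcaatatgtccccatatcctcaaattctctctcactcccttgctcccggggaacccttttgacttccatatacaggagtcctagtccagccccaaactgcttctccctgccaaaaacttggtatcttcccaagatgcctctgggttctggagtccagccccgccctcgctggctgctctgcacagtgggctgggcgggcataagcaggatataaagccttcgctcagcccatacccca
Ephx1: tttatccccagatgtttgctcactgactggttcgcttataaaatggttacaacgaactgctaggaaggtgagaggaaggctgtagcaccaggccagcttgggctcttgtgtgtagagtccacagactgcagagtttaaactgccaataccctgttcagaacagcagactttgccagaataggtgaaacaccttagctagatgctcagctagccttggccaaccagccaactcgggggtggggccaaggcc

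The tissue label was checked first. All 6 measured hepatocyte markers, Alb, Apoa1, Ttr, Cps1, Tat and Hnf4a, were read on every array, from 12.45 for Hnf4a to 14.04 for Alb, where the arrays' medians were 7.98 to 8.14. This shows that their transcripts were detected and does not rank them against other genes, since signal depends on the probes. Gli2 read 7.57 ± 0.02 (SD, n = 4) in WT_control, 7.51 ± 0.08 in WT_HFD, 7.70 ± 0.30 in Het_control and 7.53 ± 0.07 in Het_HFD. It did not differ by genotype (0.08, SE 0.07, limma adjusted p = 0.632), and since the deleted stretch is unknown here, the probe set does not check the labels. The array Het_control 2 stood apart: its correlation with the others across genes was 0.961 to 0.979, against 0.99 to 0.997 among the other 15, and the interquartile range of its levels was 2.35 against 2.64 to 2.8. For 6 of the 9 members (Nfe2l2, Ephx1, Gclc, Gclm, Txnrd1 and Gsr) it was below all 15 other arrays. The same held for 27.2% of all genes, and for 55.2% of the 7933 genes whose probe set has a mean signal of at least that of Nqo1, a class of signal and not of transcript amount. The diet differences of the members in heterozygotes are therefore given with and without it.

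The detoxification genes Nqo1 and Ephx1, rose on the high-fat diet over both genotypes, by 0.44 and 0.48. In heterozygotes alone Nqo1 rose and the other 8 members did not pass the test, although all 9 read higher on the high-fat diet. In wild type no member passed. No member passed for genotype on either diet, or for a difference between genotypes in the diet effect. The plot of levels by array shows the 4 groups for each gene.

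**Figure D1:**
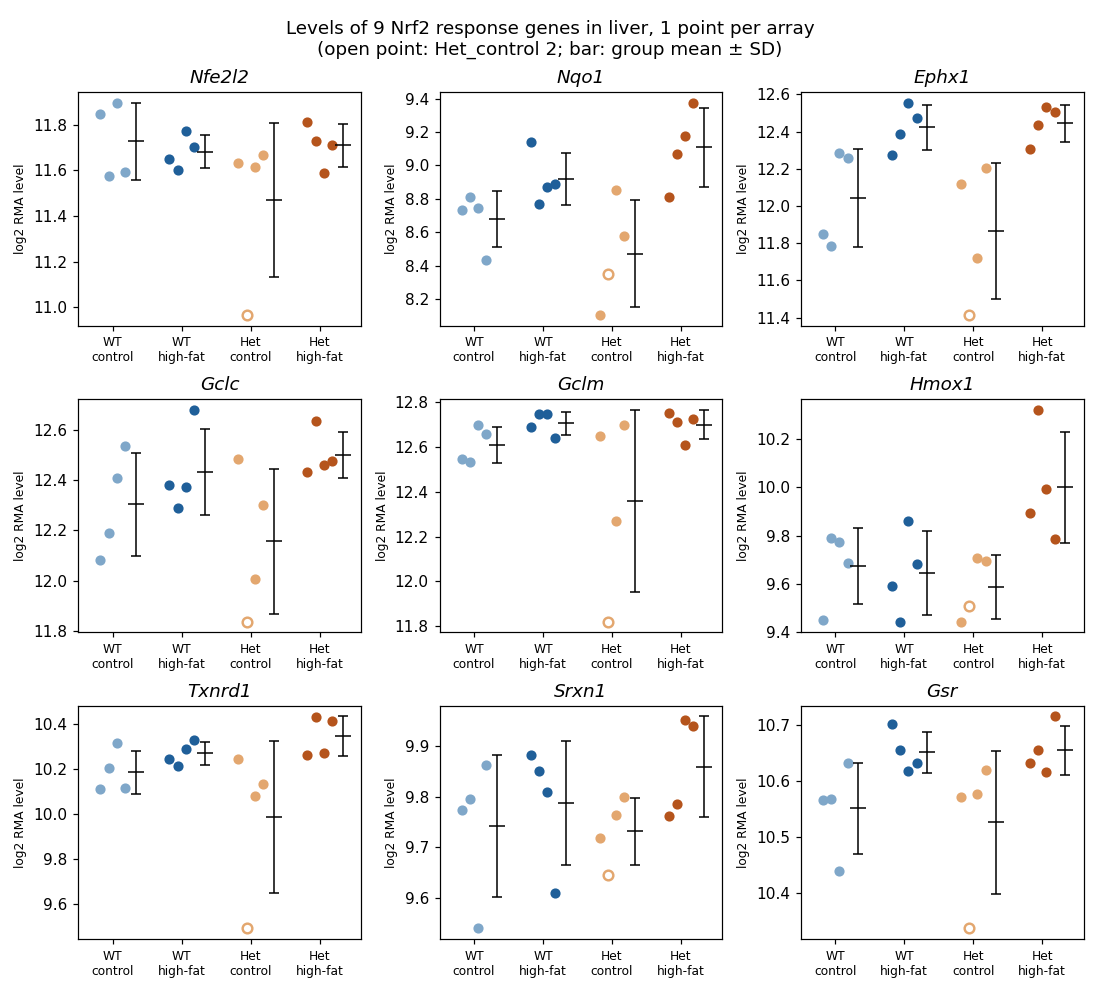
Levels of the 9 genes (vertical axis, log2 RMA level) in the 4 groups, 1 point per array, with the group mean and SD (n = 4) beside the points. The open point is Het_control 2, which lies below every other array for Nfe2l2, Ephx1, Gclc, Gclm, Txnrd1 and Gsr, while for Nqo1 the lowest array is Het_control 1 at 8.10.

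Nqo1 encodes a quinone reductase that turns quinones into hydroquinones without forming radicals, and it is the gene most often used to read out Nrf2. Among heterozygotes given the control diet its level was 8.10, 8.35, 8.85 and 8.58 in animals 1 to 4, and on the high-fat diet 8.81, 9.07, 9.18 and 9.37. The groups overlapped slightly, since the highest control animal lay above the lowest high-fat animal. The difference was 0.64 (SE 0.14, limma adjusted p = 0.0377), or 1.55-fold. Without Het_control 2 it was 0.59 (SE 0.15) and the adjusted p was 0.0684. In wild type Nqo1 read 8.73, 8.81, 8.74 and 8.43 on the control diet and 9.14, 8.77, 8.87 and 8.89 on the high-fat diet. These ranges also overlapped, with 3 of the 4 high-fat animals above every control animal, and the difference was 0.24 (SE 0.14, limma adjusted p = 0.863). Over both genotypes Nqo1 rose by 0.44 (SE 0.10, limma adjusted p = 0.0388), or 1.35-fold, and by 0.42 (adjusted p = 0.0376) without Het_control 2. Both calls lay close to the threshold. In heterozygotes the call was lost without any 1 of 8 arrays (WT_control 1 and 2, WT_HFD 3, Het_control 1 and 2, Het_HFD 2, 3 and 4; adjusted p 0.0523 to 0.118), and over both genotypes without any 1 of 10 (WT_control 1, 2 and 4, WT_HFD 1, 3 and 4, Het_control 1, Het_HFD 2, 3 and 4; adjusted p 0.0571 to 0.0902). The group means with their SD were 8.68 ± 0.17 in WT_control, 8.92 ± 0.16 in WT_HFD, 8.47 ± 0.32 in Het_control and 9.11 ± 0.23 in Het_HFD. In this order of groups, Het_control and WT_control overlapped, and so did WT_HFD and Het_HFD.

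Ephx1 encodes microsomal epoxide hydrolase, which opens reactive epoxides, and besides Nrf2 it is a known target of the drug-sensing receptor CAR. On the control diet wild-type animals read 11.85, 11.79, 12.29 and 12.26, and on the high-fat diet 12.28, 12.39, 12.55 and 12.47. In heterozygotes the values were 12.12, 11.41, 11.72 and 12.21 on the control diet and 12.31, 12.43, 12.53 and 12.51 on the high-fat diet. The control animals spread widely in both genotypes, while the 8 high-fat animals lay between 12.28 and 12.55. The heterozygous groups did not overlap, and in wild type a single high-fat animal lay below the highest control animal. Over both genotypes Ephx1 rose by 0.48 (SE 0.11, limma adjusted p = 0.0302), or 1.39-fold. Without Het_control 2 the rise was 0.40 (SE 0.09, adjusted p = 0.0204). The call was lost without any 1 of 8 arrays (WT_control 1 and 2, WT_HFD 3 and 4, Het_control 3, Het_HFD 2, 3 and 4; adjusted p 0.0596 to 0.0768). Wild-type animals alone gave 0.38 (SE 0.15, limma adjusted p = 0.655). Heterozygotes alone gave 0.58 (SE 0.15, limma adjusted p = 0.0512), and 0.43 (adjusted p = 0.0971) without Het_control 2.

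The share of all genes called sets these counts in proportion. Over both genotypes 2 of 9 members were called higher and 0 lower, and 1.86% of all genes (371) were called. In heterozygotes 1 of 9 was called, against 2.22% of all genes (442), and 0 of 9 was called without Het_control 2. In wild type 0 of 9 was called by limma, against 0% of all genes. At an unadjusted p under 0.05, 1 member (Ephx1) and 1282 genes, 6.43% of all, passed in wild type, as did 6 members and 31.6% of all genes in heterozygotes. All 4 high-fat arrays lay above all 4 control arrays for 3 of 9 members in heterozygotes (Ephx1, Hmox1 and Txnrd1), against 6.58% of all genes. In wild type this held for 0 of 9, against 3.51% of all genes.

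Among the genes of glutathione synthesis no member passed the test. Gclc and Gclm encode the catalytic and the modifier subunit of glutamate-cysteine ligase, the enzyme that limits the rate at which glutathione is made. Gclm read 12.65, 11.82, 12.27 and 12.70 in heterozygotes on the control diet and 12.75, 12.71, 12.61 and 12.72 on the high-fat diet. Het_control 2 held the lowest value, and control animals 1 and 4 lay within the high-fat range. The difference was 0.34 (SE 0.13, limma adjusted p = 0.116), and 0.16 (SE 0.08, adjusted p = 0.31) without that array. Wild-type animals stayed between 12.53 and 12.70 on the control diet and between 12.64 and 12.75 on the high-fat diet, a difference of 0.10 (SE 0.13). For Gclc the heterozygous values were 12.48, 11.84, 12.01 and 12.30 on the control diet and 12.43, 12.64, 12.46 and 12.48 on the high-fat diet. Control animals 2 and 3 were low, and control animal 1 lay within the high-fat range. The difference was 0.34 (SE 0.13, limma adjusted p = 0.107), and 0.24 (adjusted p = 0.297) without Het_control 2, and in wild type it was 0.13 (SE 0.13). Gsr, glutathione reductase, which returns oxidised glutathione to its reduced form, spanned only 10.34 to 10.72 over the 16 arrays. Its diet difference was 0.10 (SE 0.07) in wild type and 0.13 (SE 0.07, limma adjusted p = 0.183) in heterozygotes, where it was 0.066 (SE 0.05, adjusted p = 0.509) without Het_control 2.

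Of the thioredoxin branch, Txnrd1 encodes cytosolic thioredoxin reductase and Srxn1 encodes sulfiredoxin, which restores over-oxidised peroxiredoxins. Txnrd1 read 10.25, 9.49, 10.08 and 10.13 in heterozygotes on the control diet and 10.26, 10.43, 10.27 and 10.41 on the high-fat diet. The groups did not overlap, but the highest control animal was just below the lowest high-fat animal, and Het_control 2 was the lowest of all 16. The difference was 0.36 (SE 0.12, limma adjusted p = 0.0855), and 0.19 (SE 0.07, adjusted p = 0.13) without that array. In wild type it was 0.08 (SE 0.12, limma adjusted p = 0.951). Srxn1, whose window holds the pair of TGANTCA matches shown above, spanned 9.54 to 9.95 over all arrays, with overlapping groups. Its diet difference was 0.05 (SE 0.08) in wild type and 0.13 (SE 0.08, limma adjusted p = 0.256) in heterozygotes, where it was 0.10 (SE 0.08, adjusted p = 0.52) without Het_control 2.

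Nfe2l2 itself did not pass the test in any comparison. It read 11.85, 11.57, 11.89 and 11.59 in WT_control, 11.65, 11.60, 11.77 and 11.70 in WT_HFD, 11.63, 10.97, 11.62 and 11.67 in Het_control, and 11.81, 11.73, 11.59 and 11.71 in Het_HFD. Apart from Het_control 2 the 15 arrays lay within 11.57 to 11.89. The heterozygous diet difference was 0.24 (SE 0.13, limma adjusted p = 0.19), and 0.07 (SE 0.08, adjusted p = 0.645) without that array. In wild type it was -0.05 (SE 0.13).

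Hmox1, haem oxygenase, breaks haem down to biliverdin, iron and carbon monoxide, and in liver it is prominent in Kupffer cells, the resident macrophages. It read 9.44, 9.51, 9.71 and 9.69 in heterozygotes on the control diet and 9.89, 10.32, 9.995 and 9.79 on the high-fat diet. All 4 high-fat animals lay above all 4 control animals, and Het_control 2 was not the lowest. The difference was 0.41 (SE 0.12, limma adjusted p = 0.0606), or 1.33-fold, and 0.39 (SE 0.12, adjusted p = 0.113) without that array. Wild-type animals read 9.45, 9.79, 9.77 and 9.69 on the control diet and 9.59, 9.44, 9.86 and 9.68 on the high-fat diet. Those groups overlapped throughout, with a difference of -0.03 (SE 0.12, limma adjusted p = 0.988).

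Macrophage and Kupffer cell markers moved in the same comparison. All 14 fixed markers were measured, in heterozygotes all 14 read higher on the high-fat diet, and 9 were called, with a median difference of 0.61, where 2.22% of all genes were called and 40.5% were higher in value. Without Het_control 2 the median was 0.49 and 4 were called. Their summed level was 13.76 to 14.33 in Het_control and 14.46 to 14.84 in Het_HFD, and Het_HFD 2 had the highest value of both this sum (14.84) and Hmox1 (10.32). In wild type the sum was 14.31 to 14.45 on the control diet and 14.03 to 14.63 on the high-fat diet, the median marker difference was -0.05, and none was called. WT_HFD 4, at 14.63, lay above Het_HFD 1, 3 and 4 in this sum, while its Hmox1 (9.68) lay below all 4 Het_HFD animals. The part of these cells in the Hmox1 values was not tested. In whole tissue, a changed number of cells of a type and a changed amount of RNA per cell cannot be told apart. The 6 hepatocyte markers had a median difference of 0.0071 in heterozygotes, -0.020 without Het_control 2, and -0.0067 in wild type. For other cell types the heterozygous medians were 0.24 for endothelial cells (0 of 6 called), 0.09 for stellate cells (1 of 6 called), -0.21 for bile duct cells (0 of 4), 0.08 for lymphocytes (0 of 5) and 0.11 for erythroid cells (0 of 2). Without Het_control 2 they were 0.15, 0.06, -0.22, 0.21 and 0.15, with 0 called in each.

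**Figure D2:**
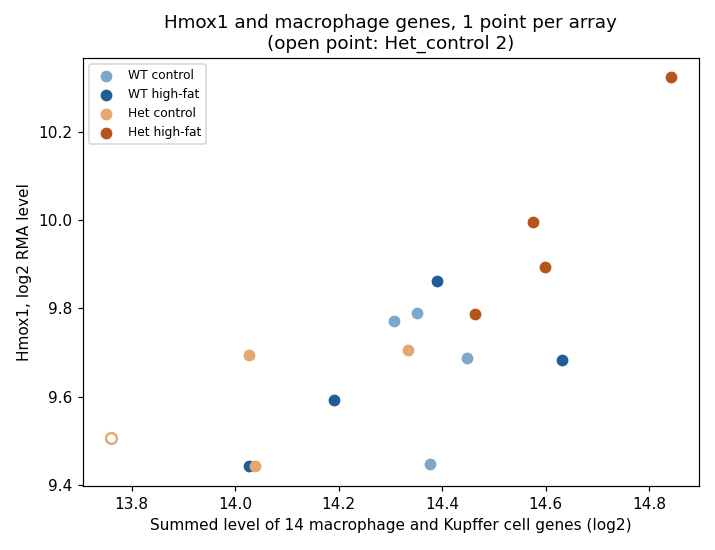
Hmox1 (vertical axis, log2 RMA level) against the summed level of 14 macrophage and Kupffer cell genes (horizontal axis, log2), 1 point per array, coloured by group, with Het_control 2 open. The Het_HFD animals lie at 14.46 to 14.84 on the horizontal axis, above the Het_control animals at 13.76 to 14.33. Wild-type animals lie at 14.31 to 14.45 on the control diet and 14.03 to 14.63 on the high-fat diet. The one at 14.63, WT_HFD 4, has Hmox1 at 9.68, below every Het_HFD animal.

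As a list, the 9 members had a median diet difference of 0.34 in heterozygotes, where the median of all genes was -0.05. Without Het_control 2 these medians were 0.19 and -0.02. Genes with a high signal were also more often higher in value there: among the same 7933 genes the median was 0.10, and 70.6% were higher, falling to 0.04 and 61.2% without Het_control 2. In wild type 7 of 9 members were higher in value, with a median of 0.10 against -0.01 for all genes and 0.03 for the 7933. Over both genotypes all 9 were higher in value, with a median of 0.22 against -0.04 for all genes, and 0.14 without Het_control 2. Among the 7933 the median there was 0.07, and 71.3% were higher, falling to 0.04 and 64.5% without Het_control 2. Besides Nqo1 and Ephx1, 5 more members (Txnrd1, Gclc, Gsr, Hmox1 and Gclm) had an unadjusted p under 0.05 over both genotypes, with limma adjusted p from 0.133 to 0.165, where 26.9% of all genes did so.

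**Figure D3:**
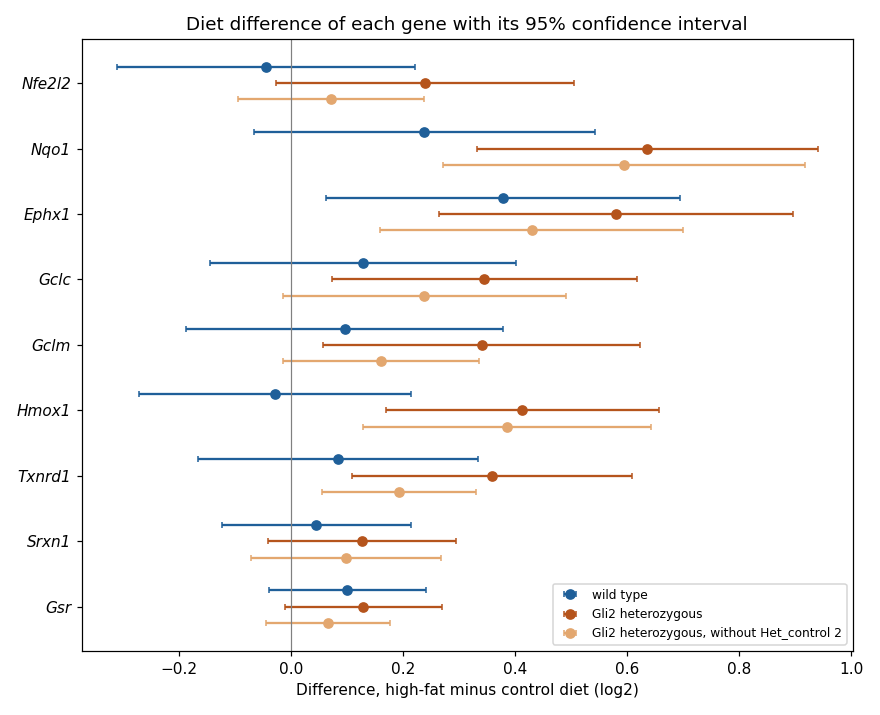
Diet difference of each gene (horizontal axis, log2, high-fat minus control) with its 95% confidence interval from the fit, in wild type, in heterozygotes, and in heterozygotes without Het_control 2. The heterozygous difference is above 0 for all 9 genes, from 0.13 for Srxn1 and Gsr to 0.64 for Nqo1, and leaving out Het_control 2 brings Nfe2l2, Gclm and Txnrd1 to 0.07, 0.16 and 0.19.

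Genotype made no called difference to any member. On the control diet 0 of 9 was called by limma, against 0% of all genes, and 0 members and 3135 genes had an unadjusted p under 0.05. All 9 read lower in heterozygotes, from -0.26 (Nfe2l2) to -0.01 (Srxn1), with a median of -0.18. Without Het_control 2 the median was -0.04, with Srxn1 and Gsr higher in value, and the same pair turned when quantile normalization was repeated. Of all genes 60.6% were higher in heterozygotes, with a median of 0.04. Among the 7933 genes of high signal 32.9% were, with a median of -0.07, becoming 47.5% and -0.005 without Het_control 2. Of the 14 macrophage markers 3 read higher in heterozygotes on this diet. Their median was -0.36, and -0.24 without Het_control 2, with none called. On the high-fat diet 0 of 9 was called, against 0.00502% of all genes (1 gene), and 1 member and 711 genes passed unadjusted. The member was Hmox1, higher in heterozygotes by 0.36 (SE 0.12, 95% confidence interval 0.11 to 0.60, limma adjusted p = 0.931), with groups that overlapped (9.44 to 9.86 against 9.79 to 10.32). All 14 macrophage markers also read higher there, with a median of 0.31 and none called, where 53.8% of all genes were higher in value. The other members differed by -0.01 to 0.19. Over both diets 0 of 9 was called, against 0.00502% of all genes, with differences from -0.13 (Gclm) to 0.13 (Hmox1), and 0 members and 1548 genes passed unadjusted.

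The diet difference in heterozygotes minus that in wild type asks whether the genotypes responded unequally. By limma 0 of 9 members was called, against 0% of all genes, with 1 member and 1621 genes at an unadjusted p under 0.05. Hmox1 had the largest value, 0.44 (SE 0.16, 95% confidence interval 0.10 to 0.79, adjusted p = 0.509), followed by Nqo1 at 0.40 (SE 0.20, interval -0.03 to 0.83, adjusted p = 0.618). The median macrophage marker stood at 0.71 in this contrast, and at 0.56 without Het_control 2, with none called. All 9 members were above 0, with a median of 0.24, but without Het_control 2 the median was 0.11 and Gsr was below 0. Of all genes 42.5% were above 0, with a median of -0.03. Among the 7933 genes of high signal 65.6% were, with a median of 0.06, falling to 51.6% and 0.005 without Het_control 2. The rise of Nqo1 in heterozygotes is therefore not shown to differ from the wild-type value. These contrasts share arrays with the diet contrasts, so their values are not separate evidence.

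The wider Nrf2 network was read from lists. Of 45 further targets in 5 lists, 37 had a probe set with a single symbol. Over both genotypes 2 were called higher and 0 lower on the high-fat diet, where 1.86% of all genes were called. Higher in value were 26 of 37, with a median of 0.06 (0.04 without Het_control 2, with 2 called). Of all genes 40.4% were higher in value. Among the 7933 genes of high signal 71.3% were, with a median of 0.07, becoming 64.5% and 0.04 without Het_control 2. Some of these targets lie below that signal. In heterozygotes 1 was called, against 2.22% of all genes, 28 were higher in value and the median was 0.11, which became 0 called and 0.04 without Het_control 2. In wild type 0 was called and 20 of 37 were higher in value. The shares of the 7933 higher in value were 70.6% in heterozygotes, 61.2% without Het_control 2, and 62.9% in wild type.

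By function, detoxification and efflux held the called gene with the smallest p of these lists. Abcc3, a transporter that exports glucuronides and bile acids from hepatocytes into blood, rose by 0.45 (SE 0.08, limma adjusted p = 0.0137) over both genotypes, or 1.37-fold, and by 0.39 (adjusted p = 0.00667) without Het_control 2. Wild-type animals alone gave 0.43 (SE 0.11, limma adjusted p = 0.363). Heterozygotes alone gave 0.47 (SE 0.11, limma adjusted p = 0.0453), and 0.34 (adjusted p = 0.0672) without Het_control 2. This call was lost without any 1 of 14 arrays (all but WT_HFD 4 and Het_control 4; adjusted p 0.0509 to 0.0969). In both genotypes all 4 high-fat animals lay above all 4 control animals. Of the other 10 measured genes of the list none was called, and 5 of 11 were higher in value over both genotypes. The share higher in value was 40.4% for all genes and 71.3% for the 7933 genes of high signal, and 1.86% of all genes were called. In iron and haem handling 1 of 7 was called: Abcb6, a porphyrin transporter, rose by 0.28 (SE 0.06, limma adjusted p = 0.0207), with groups apart in both genotypes, and all 7 were higher in value. That call was lost without WT_control 1 (adjusted p = 0.0518) or Het_HFD 4 (adjusted p = 0.0555). Of the glutathione list 0 of 12 was called and 9 were higher in value, where Gsta4, a transferase for lipid aldehydes such as hydroxynonenal, read 0.32 (SE 0.11, limma adjusted p = 0.11) and Gsta3 read 0.16 (SE 0.05, adjusted p = 0.104). In NADPH supply 0 of 5 was called, with Idh1, cytosolic isocitrate dehydrogenase, at 0.21 (limma adjusted p = 0.118) and Me1, malic enzyme, at -0.26 (adjusted p = 0.227). The substrates of the thioredoxin branch, Txn1 and Prdx1, read 0.05 and 0.10, and 0.03 and 0.02 without Het_control 2, and neither was called.

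The regulators of Nrf2 showed 0 of 11 called over both genotypes, with 9 higher in value. In this contrast 1.86% of all genes were called, and 40.4% of all genes and 71.3% of the 7933 genes of high signal were higher in value. Sqstm1, the autophagy adaptor that draws Keap1 away from Nrf2, read 0.11 (SE 0.04, limma adjusted p = 0.115), and the small Maf gene Maff read -0.15 (SE 0.06, adjusted p = 0.13). Of 13 antioxidant enzymes outside the target lists 1 was called: Gpx1, which uses glutathione to reduce hydrogen peroxide, rose by 0.20 (SE 0.05, limma adjusted p = 0.0379), and 12 were higher in value. Its call was lost without any 1 of 11 arrays (all but WT_control 3, Het_control 1, 2 and 4 and Het_HFD 1; adjusted p 0.054 to 0.0874).

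Receptors for foreign compounds share targets with Nrf2, and their genes were counted beside it. Of 11 measured CAR and PXR targets 1 was called over both genotypes and 8 were higher in value, with a median of 0.19, where 1.86% of all genes were called and 40.4% were higher in value. Without Het_control 2 the median was 0.11 and 7 were higher in value. Among the 7933 genes of high signal 71.3% were higher in value, and 64.5% without Het_control 2. Cyp2b13, a cytochrome P450, rose by 0.35 (SE 0.08, limma adjusted p = 0.0313), a call lost without any 1 of 10 arrays (WT_control 1, 2 and 4, WT_HFD 1, 3 and 4, Het_control 3, Het_HFD 2, 3 and 4; adjusted p 0.0523 to 0.0768). Its paralog Cyp2b9 is nearly identical, so the probe set may not separate them. Cyp2b10, the usual marker of CAR and named here after its values were seen, read 0.56 (SE 0.15, limma adjusted p = 0.0659). In heterozygotes the median of this list was 0.34, and 0.19 without Het_control 2, equal at this precision to those of the 9 members. The spread was unlike: this list ran from -0.38 to 0.57, with 9 of 11 higher in value and 0 called. The members ran from 0.13 to 0.64, with all 9 higher in value and 1 called. Of 6 Ahr targets 0 was called and 1 was higher in value, Cyp1a2 at 0.24 (SE 0.08, limma adjusted p = 0.101), while Cyp1b1 read -0.10, and -0.05 without Het_control 2.

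**Figure D4:**
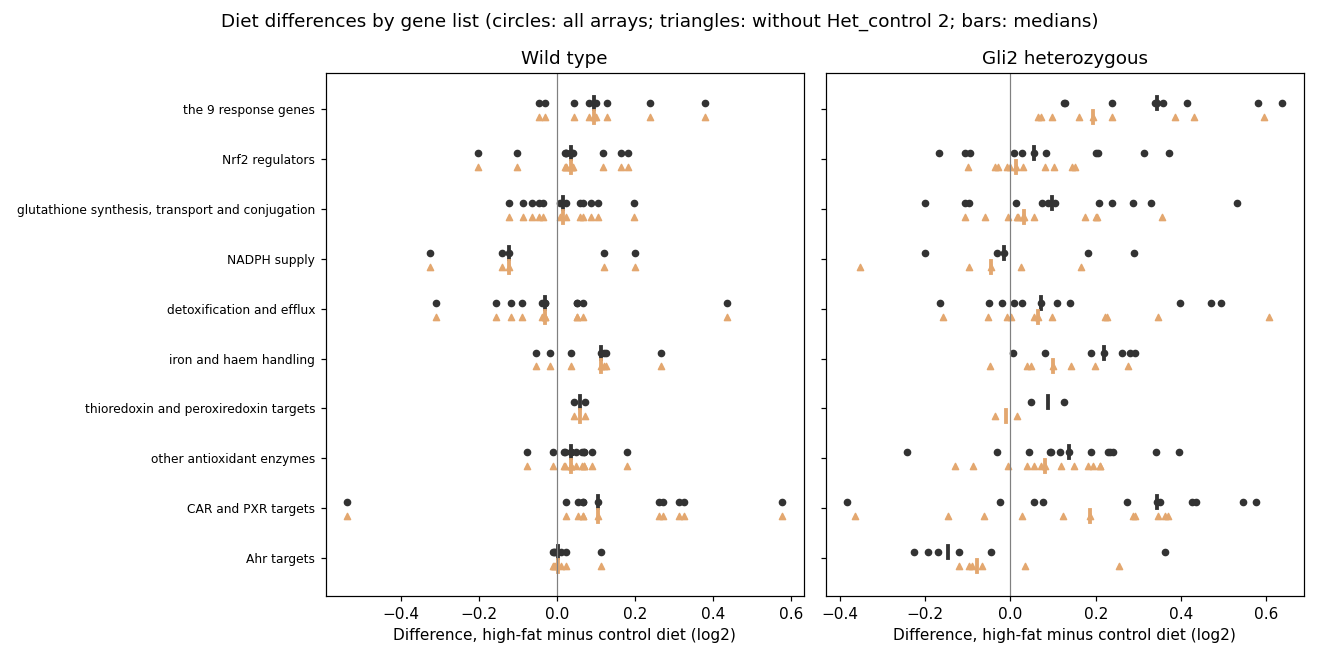
Diet difference (horizontal axis, log2, high-fat minus control) of every measured gene of the 9 response genes and of 9 related lists, in wild type and in heterozygotes, with all arrays (circles) and without Het_control 2 (triangles); bars are medians. In heterozygotes the medians of the response genes and of the CAR and PXR targets are 0.34 with all arrays and 0.19 without Het_control 2, while that of the Nrf2 regulators is 0.06. With all arrays the response genes run from 0.13 to 0.64 there, and the CAR and PXR targets from -0.38 to 0.57.

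The members varied together partly through 1 array. Over their 36 pairs the median Pearson correlation across the 16 arrays was 0.53, and 0.30 across 15 arrays without Het_control 2. With group means removed it was 0.25, and -3e-04 without that array, when 18 of 36 pairs were below 0. These points share the arrays and their normalization. The genes with levels most like those of Nqo1 across the 16 arrays were Gm21286 (r = 0.867), Dap3 (0.865), Slc47a1 (0.86), Entpd4 (0.859) and Tert (0.847), and no other member was among them. Without Het_control 2 their r ranged from 0.83 for Tert to 0.92 for Dap3.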

How the data were processed

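The values are log2 expression levels, 1 per probe set and array, deposited by the authors and, per the submitters' processing notes, computed in Affymetrix Expression Console by RMA, whose versions no source used here gives. This method equalises the intensity distributions of the arrays, so a shift shared by all transcripts would not be seen, and levels of different probe sets are not compared as transcript amounts (signal only chooses the probe set of a gene and classes of signal). Of 35556 probe sets, 21789 carry 1 gene symbol, 1621 several and 12146 none; the latter groups were left out. Symbols were updated through Entrez numbers with a RefSeq GRCm38.p6 table, which matched 19856 of 19938 genes. For the 999 genes with several probe sets the one with the highest mean was taken; each member has 1. Differences were fitted with limma 3.58.1 in R 4.3.3 (statmod 1.5.0), with all 16 arrays in 1 fit, a mean per group and eBayes without trend or robust settings. For each of 7 contrasts the Benjamini-Hochberg adjustment ran over all 19938 genes, with calls at an adjusted p under 0.05. The fit was tested on simulated data with independent noise, no outlying array and planted changes larger than any member's difference. It therefore does not show how well differences of the members' size are found. The 4 animals per group limit the precision. Sample titles hold numbers of unstated meaning, 5 of 11 shared by several arrays, so independence of animals cannot be checked. The members and the gene and marker lists were chosen with earlier results of these data known. The text names all members, the called genes of each list (or the 2 with the smallest p over both genotypes where none was called) and the 5 genes most correlated with Nqo1. Alternatives were another quantile normalization, a filter on dim genes, trend and robust moderation, array weights, a random block, all probe sets, only the compared groups, and leaving out each array; applying them to the members' median and to list genes, and counting lists and markers without Het_control 2, was added after the data were seen.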

Additional observations from a re-analysis of the deposited data

Results flagged for a closer look

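Of 36 groups of 4 arrays tested (9 members in 4 groups), 1 held an array far from its mates, where chance flags about 1 in 20. Nfe2l2 read 10.97 in Het_control 2, and the nearest animal of that group read 11.62, a gap of 0.927 of the group's whole range. This is the array that stood apart across all genes, and the diet difference of Nfe2l2 in heterozygotes, 0.24, is 0.07 without it.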

How the results depend on the processing

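The count of members called on the high-fat diet in heterozygotes, 1, was 3 when only genes brighter than the median gene were tested, 2 with trend and robust moderation, 2 with array weights, 6 when the title number was a random block, 0 with all probe sets tested and 0 with only the compared groups fitted. Without 1 array it ran from 0 to 5. It was 5 without Het_control 4 and 0 without any 1 of WT_control 1 or 2, WT_HFD 3, Het_control 1 or 2, or Het_HFD 2, 3 or 4. Over both genotypes the count, 2, was 4 with the random block, also larger with array weights, 0 with all probe sets, and 0 to 2 without 1 array. The random block had a negative consensus correlation, -0.372, so arrays sharing a title number were modelled as less alike than other arrays. The larger counts under this setting are therefore not read as support for more calls. Nqo1 passed in 13 of 23 alternatives in heterozygotes (0.51 to 0.76, limma adjusted p 0.00708 to 0.199) and in 11 of 22 over both genotypes; Ephx1 passed in 5 of 23 and 13 of 22, Abcc3 in 7 of 23 and 22 of 22, Abcb6 in 19, Cyp2b13 in 11 and Gpx1 in 9 of 22. No called difference changed sign. Of the members' differences 16, all uncalled and at most 0.079 in size, changed sign in 50 cases over the alternatives, to values of at most 0.052 in size. With repeated quantile normalization, control-diet genotype differences of Srxn1 and Gsr became 0.034 and 0.037, that of Gclm on the high-fat diet 0.012, those of Gclc and Gsr over both diets 0.015 and 0.024, and the Gsr interaction -0.026. With array weights Gsr read 0.017 on the control diet, -0.0043 on the high-fat diet, 0.00617 over both and -0.021 as interaction, Gclm 0.000286 on the high-fat diet, and Nqo1, Ephx1, Gclc and Txnrd1 over both diets 0.0061, 0.015, 0.023 and 0.025. With the random block the wild-type diet difference of Nfe2l2 was 0.013, its high-fat genotype difference -0.0062 and that of Nqo1 over both diets 0.022. Without 1 array, wild-type diet differences ran from -0.097 to 0.010 (Nfe2l2), -0.104 to 0.038 (Hmox1) and -0.022 to 0.104 (Srxn1). Genotype differences ran from -0.078 to 0.029 (Srxn1) and -0.063 to 0.038 (Gsr) on the control diet. On the high-fat diet they ran from -0.0061 to 0.069 (Nfe2l2), -0.027 to 0.068 (Ephx1), -0.027 to 0.025 (Gclm) and -0.017 to 0.020 (Gsr). Over both diets they ran from -0.073 to 0.052 (Nqo1), -0.093 to 0.015 (Gclc), -0.105 to 0.021 (Txnrd1), -0.0037 to 0.050 (Srxn1) and -0.030 to 0.021 (Gsr), and the Gsr interaction from -0.035 to 0.066. The causes were not tested. Each member has 1 probe set, so the planned reading of other probe sets was not run. The replicate numbers pair no animals, and no paired analysis was possible because the labels give none.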
